A study of Mus musculus with 8 samples.

Results

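The interferon-induced proteins with tetratricopeptide repeats (IFIT) and a group of small interferon-induced proteins were followed in brain microvessels of newborn mice with an always-active PDGF receptor beta. The group was set as 8 genes, Ifit1, Ifit2, Ifit3, Ifi27, Ifi27l2a, Ifi35, Ifi44 and Nmi, and every probe set annotated to 1 of these symbols alone was taken. It held 10 of the 45101 probe sets, for 7 of the 8 genes, and these 7 were among the 11446 genes tested. Ifi44 had no such probe set and was not analysed here. The 4 mutant brains carried PDGFRb (D849V), a knock-in allele whose receptor signals without ligand, and the 4 control brains were wild type. All 8 mice were at postnatal day 1 on a mixed 129S/J background. Each array was hybridised with cRNA from 6 ug of RNA of 1 brain, from vessel fragments with attached pericytes that had been captured on beads against the endothelial protein PECAM. The labels speak of pericytes as the cells with the active receptor and name no promoter or Cre that would limit the allele to them.

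Interferons bind cell surface receptors whose kinases activate STAT proteins. With the interferon regulatory factor Irf9 these enter the nucleus and bind a short DNA element, the interferon-stimulated response element, in the promoters of many genes. The IFIT genes are among the most strongly induced of them: their proteins bind viral or unmodified RNA and restrain its translation. Ifi35 and Nmi are cytoplasmic proteins that bind each other, and Nmi also binds STAT and Myc proteins. Ifi27 and Ifi27l2a encode small hydrophobic membrane proteins, and human IFI27 is a widely used marker of an interferon response.

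To show what the start sites of these genes look like, promoter windows were read from RefSeq (GRCm38.p6), from 250 bases before to 50 bases after an annotated start. Windows were listed for 5 of the 7 measured genes, and for Ifi27 and Ifi27l2a none was. The core of the interferon-stimulated response element, GAAA and a second GAAA with any 2 bases between them, searched on both strands (TTTC on the other), occurred in 2 of the 5, Ifit1 and Ifit3, and in 3.44% of all 32851 windows. Both windows are shown with the matches in capitals, because they are the 2 with matches among the measured genes.
Ifit1, chr19:34640639-34640938, plus strand: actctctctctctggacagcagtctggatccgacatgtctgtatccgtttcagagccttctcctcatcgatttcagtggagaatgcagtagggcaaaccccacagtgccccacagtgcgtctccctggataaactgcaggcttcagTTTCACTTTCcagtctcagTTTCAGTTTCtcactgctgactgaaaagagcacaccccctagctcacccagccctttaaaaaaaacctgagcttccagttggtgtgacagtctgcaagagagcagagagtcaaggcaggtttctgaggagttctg
Ifit3, chr19:34583279-34583578, plus strand: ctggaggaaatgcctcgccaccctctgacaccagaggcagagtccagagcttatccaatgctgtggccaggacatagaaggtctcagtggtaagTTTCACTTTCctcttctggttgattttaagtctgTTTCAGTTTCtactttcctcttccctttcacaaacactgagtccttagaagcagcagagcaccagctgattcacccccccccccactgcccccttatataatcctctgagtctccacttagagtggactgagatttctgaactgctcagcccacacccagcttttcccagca
The matches began at bases -104 and -85 from the start of Ifit1 and at bases -156 and -122 from the start of Ifit3. The window of Ifi35 held no such match but 1 match of TTCNNNGAA, the core of the gamma interferon activation site, at base 8 after the start, which 8.3% of all windows held. The first window of Ifit2 also held 1, at base -241.
Ifi35, chr11:101448162-101448461, plus strand: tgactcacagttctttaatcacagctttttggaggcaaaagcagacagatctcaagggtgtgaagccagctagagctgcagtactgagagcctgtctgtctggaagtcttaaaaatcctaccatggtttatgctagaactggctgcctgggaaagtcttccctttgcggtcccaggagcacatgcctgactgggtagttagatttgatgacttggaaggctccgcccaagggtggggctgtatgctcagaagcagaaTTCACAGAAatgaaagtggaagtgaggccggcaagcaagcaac
The 2 windows of Ifit2 and the window of Nmi held no such GAAA pair, which says only that these letters are not in these windows.

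Of the 7 measured genes, 6 rose in the mutant microvessels and none fell (limma, Benjamini-Hochberg adjusted p of at most 9.77e-05 over all genes), while 2.66% of all tested genes were called higher and 1.92% lower, 4.58% in either direction. The rises were very unequal: Ifit1 was at least 232-fold higher, Ifit3 140.4-fold and Ifi27l2a 121.3-fold, against 4.51-fold for Ifi35 and 3.28-fold for Nmi. The exception was Ifi27, which did not pass. The median difference of the 7 was 5.45 on the log2 scale, against -0.11 for all tested genes. The values of the mutant and control arrays did not overlap for 6 of the 7, all with the mutants higher, which held for 4.07% of all tested genes. All values below are log2 GCRMA values of the brightest probe set unless another is named, and a level is comparable between arrays but not between genes.

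**Figure D1:**
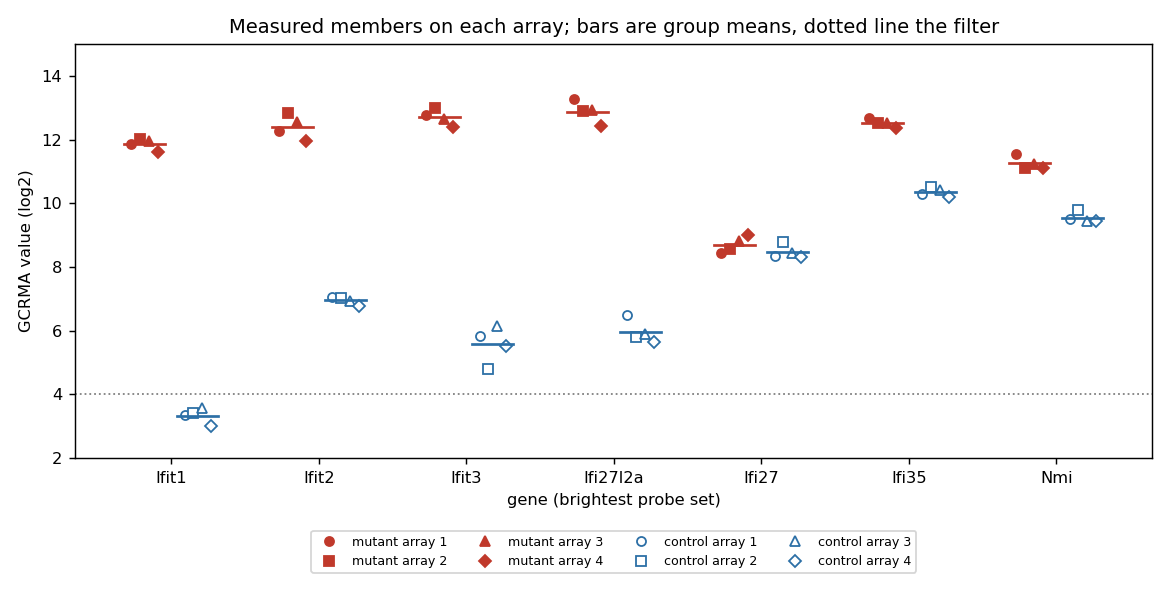
Log2 GCRMA value (vertical axis) of the 7 measured genes on each array, with the 4 mutant arrays left of the 4 control arrays for each gene and a bar at each group mean. The groups lie apart for all genes but Ifi27, and the control values of Ifit1 lie below the dotted filter level of 4.

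Ifit1, which binds the start of RNAs whose cap lacks the methyl marks of host messages, read 11.87, 12.03, 11.94 and 11.60 on the mutant arrays. On the control arrays it read 3.34, 3.40, 3.58 and 2.99, all under the filter level of 4, so it passed the filter only through its mutant arrays. With the controls set to that level the rise was at least 7.86 on the log2 scale. The fitted difference of 8.53 (SE 0.147, limma adjusted p = 3.17e-08) depends on those dim control values. Its rank among all genes is not given, since dim control values set it.

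Ifit3, which in human cells binds IFIT1 and steadies it on RNA, read 12.78, 13.00, 12.64 and 12.39 in the mutants and 5.82, 4.78, 6.14 and 5.53 in the controls. The lowest mutant value lay 6.25 above the highest control value. Its difference was 7.13 (SE 0.277, limma adjusted p = 1.48e-06), and the control values, spread over 1.36, were the least even of the 7 genes. A near copy, Ifit3b, had no probe set of its own. Over 274 aligned columns the promoter windows of Ifit3 and Ifit3b were 94.5% identical, and whether the Ifit3 probe set also reads Ifit3b RNA was not analysed here.

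Ifit2, which restrains viruses in mouse brain neurons, read 12.26, 12.83, 12.55 and 11.96 in the mutants and 7.07, 7.02, 6.93 and 6.77 in the controls. It stood higher in control vessels than the filter level on every array and rose by 5.45 (43.8-fold, SE 0.181, limma adjusted p = 7.42e-07). The groups were 4.89 apart at their nearest values. The 95% interval of Ifit2 (5.04 to 5.87) did not reach that of Ifit3 (6.50 to 7.77). Of Ifit1 only the bound of 7.86 can be set beside them. It lay above both intervals but has no interval of its own, and whether Ifit1 and Ifit3 differ was not tested.

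Ifi27l2a, a small hydrophobic protein of the Ifi27 family, read 13.27, 12.89, 12.93 and 12.41 in the mutants and 6.50, 5.80, 5.89 and 5.63 in the controls. Its difference of 6.92 (SE 0.23, limma adjusted p = 7.42e-07) rested on control values above the filter, and its interval (6.40 to 7.45) overlapped that of Ifit3. Ifi27 showed no such change. Its brighter probe set read 8.43, 8.56, 8.82 and 9.01 in the mutants and 8.33, 8.77, 8.44 and 8.31 in the controls, so the groups overlapped. The difference was 0.24 (95% interval -0.12 to 0.60, limma adjusted p = 0.416) and 0.14 without mutant array 4, and the second probe set gave 0.22 (-0.22 to 0.67, adjusted p = 0.592 over all probe sets). These intervals leave room for a small change of either sign but not for one of the size seen in Ifi27l2a. Ifi27 passed under 1 alternative, array weights (0.39, limma adjusted p = 0.0239), which called 3158 genes in all. The names need care: in the gene table of GRCm38.p6 Ifi27 is also an older symbol of Ifi27l2a, and the span of Ifi27 lies inside that of Ifi27l2a.

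Ifi35, the partner of Nmi, read 12.68, 12.51, 12.53 and 12.37 in the mutants and 10.30, 10.51, 10.41 and 10.18 in the controls. It was already bright in control vessels and rose by 2.17 (SE 0.105, limma adjusted p = 5.23e-06). Its 3 probe sets gave differences of 2.34, 2.17 and 2.19, and the mutant and control arrays stood at least 1.86 apart on each. Nmi, the N-Myc and STAT interactor, read 11.55, 11.12, 11.24 and 11.10 in the mutants and 9.49, 9.78, 9.43 and 9.44 in the controls. Its rise of 1.71 (SE 0.132, limma adjusted p = 9.77e-05) was the smallest of the 6, and its interval (1.41 to 2.02) overlapped that of Ifi35 (1.93 to 2.41). In the fit of every probe set singly, 8 of the 10 passed and were higher, against 1.85% of all 22310 tested, and the 2 that did not pass were those of Ifi27.

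**Figure D2:**
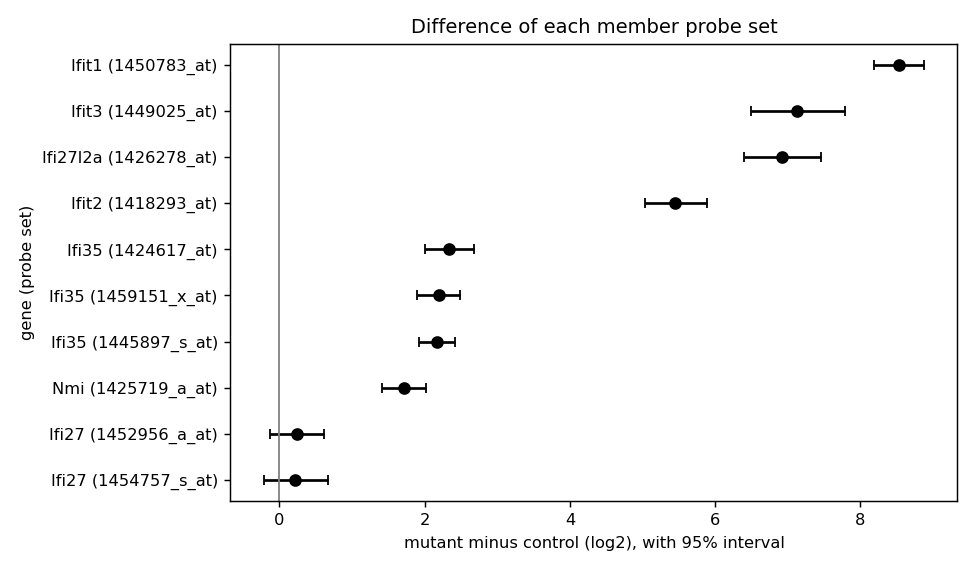
Mutant minus control difference of the 10 probe sets on the log2 scale (horizontal axis), with the 95% interval of the fit over all probe sets. The 3 probe sets of Ifi35 lie together between 2.17 and 2.34, and both of Ifi27 have intervals that include 0.

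Among the mutant arrays the 6 risen genes varied in the same way at the low end. Mutant array 4 had the lowest mutant value for 6 of the 6, by -0.20 to -0.62 against the mean of the other mutants (median -0.38). The same array was lowest for 70.7% of the 304 genes called higher (median -0.37) and for 22.5% of all tested genes (median 0.06). It was also lowest for 26 of 29 other interferon-induced genes and 14 of 14 microglia and macrophage markers tested. Other markers also differed among the mutant arrays. Mutant array 4 was lowest of the mutants for 8 of 10 endothelial markers but for 0 of 9 pericyte and 1 of 4 smooth muscle markers. It was lowest for 0 of 10 neuron, 0 of 8 astrocyte, 0 of 6 oligodendrocyte, 0 of 5 choroid plexus and 1 of 7 fibroblast markers. Mutant array 1, in turn, was the lowest mutant for 45.6% of all tested genes and for 13.2% of the 304 called higher. It was also lowest for every astrocyte and choroid plexus marker tested. The myelin gene Mbp, lowest on array 1 and highest on array 4, read 8.09, 9.50, 9.80 and 10.70 on mutant arrays 1 to 4. On the control arrays Mbp read 9.19, 8.80, 8.20 and 8.88. The part of these differences between mutant arrays in the lower values of the IFIT group was not tested. The highest mutant value was that of array 2 for Ifit1, Ifit2 and Ifit3, and that of array 1 for Ifi27l2a, Ifi35 and Nmi. Ifi27 ran the other way, with its highest value on mutant array 4 and its lowest on mutant array 1. The Y-linked gene Eif2s3y read 10.43, 2.30, 10.40 and 10.28 on mutant arrays 1 to 4 and 2.18, 10.16, 10.00 and 2.18 on the control arrays. Male and female brains were thus not evenly spread over the groups. With a Y-linked covariate in the fit the same 6 genes passed. Without mutant array 4 the differences were 5.60 for Ifit2, 7.24 for Ifit3, 7.08 for Ifi27l2a, 2.22 for Ifi35 and 1.77 for Nmi, and all 5 still passed. Ifit1 then had fewer than 4 arrays above the filter and was not tested.

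**Figure D3:**
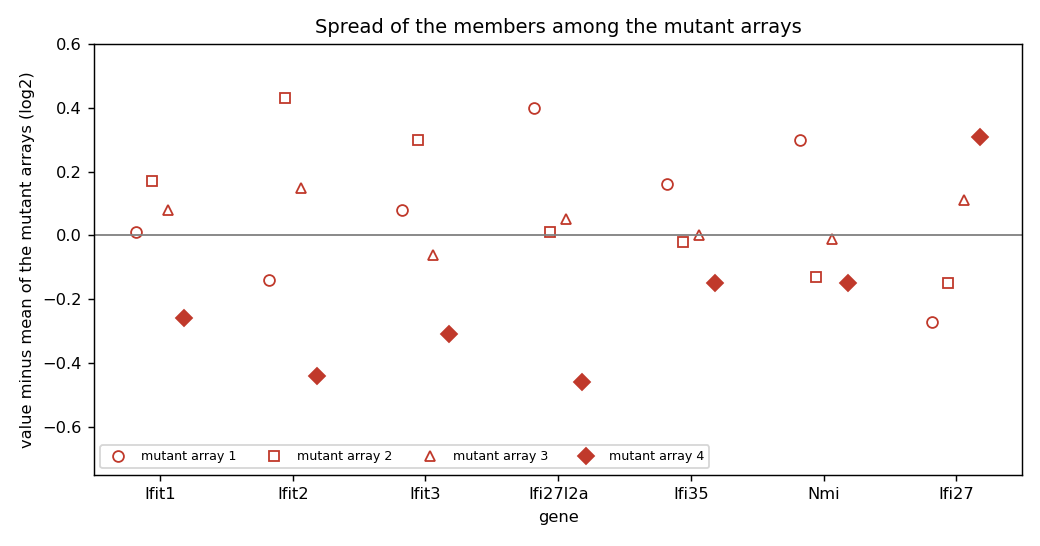
Value of each gene on each mutant array minus the mean of the 4 mutant arrays, on the log2 scale (vertical axis). Filled diamonds mark mutant array 4, which is lowest for the 6 risen genes and highest for Ifi27.

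The close relatives behaved less evenly. Of 5 listed, Ifit3b had no probe set, 3 were tested and 1 rose. Ifit1bl1, a mouse gene that resembles Ifit1, read 7.80, 7.01, 6.58 and 6.26 in the mutants and 4.33, 4.43, 4.53 and 4.64 in the controls, a rise of 2.43 (SE 0.296, limma adjusted p = 0.00197). Ifit1bl2 read 6.48, 5.56, 5.89 and 5.69 in the mutants and 4.50, 5.42, 5.80 and 4.93 in the controls, and the groups overlapped. Its difference of 0.74 did not pass (limma adjusted p = 0.215). Of its 2 listed promoter windows, the first lies on the other strand from that of Ifit1 and shares 245 bases and both GAAA pairs with it, and the second holds no GAAA pair. Ifi27l2b differed by 0.71 and did not pass (limma adjusted p = 0.197), and without mutant array 1 it differed by 0.43.

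Ifi44l, whose older symbol is H28, split the mutant arrays. It read 10.21, 10.30, 9.90 and 2.45 on mutant arrays 1 to 4 and 2.29, 2.45, 2.29 and 2.29 on the control arrays. Mutant arrays 1 to 3 were thus bright while mutant array 4 sat among the controls near the lowest value of the table, 2.18. A second probe set gave the same split, with 9.44, 9.63, 9.31 and 2.29 in the mutants and 2.30, 2.29, 2.25 and 2.25 in the controls. The third lay between 2.18 and 2.59 on all arrays. Above the filter on 3 arrays only, Ifi44l was not tested. The mice were of mixed background, and what sets mutant array 4 apart here was not tested.

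**Figure D4:**
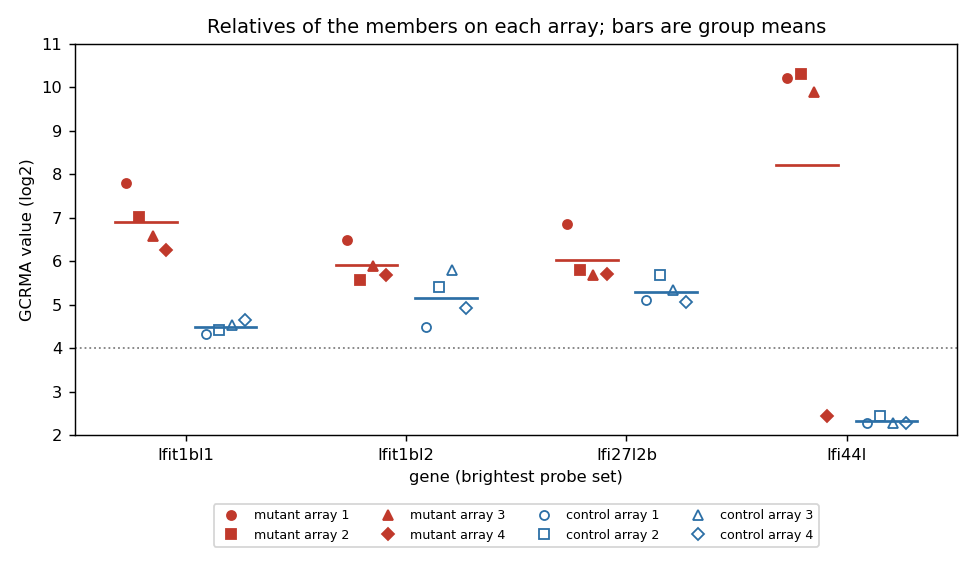
Log2 GCRMA value (vertical axis) of 4 relatives on each array, mutant arrays left of control arrays, with a bar at each group mean. Ifi44l reads 2.45 on mutant array 4 and at least 9.90 on the other mutant arrays, so its mutant mean describes no array.

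The genes beside the measured genes and Ifi44 on the chromosome were read next, up to 3 on each side of each, without the genes themselves. Of 34 such neighbours 21 had a probe set, 14 were tested, 3 rose and none fell, while 2.66% of all tested genes were called higher. The risen ones were Ddx24, Rbm43 and Ifit1bl1, which is also counted among the relatives above. Along the cluster on chromosome 19, Ifit2, Ifit3 and Ifit1 rose together with Ifit1bl1, while the lysosomal lipase gene Lipa on one flank differed by -0.17 (limma adjusted p = 0.39) and the transporter gene Slc16a12 on the other by -0.36 (limma adjusted p = 0.125). Ddx24, an RNA helicase gene beside Ifi27l2a, read 8.87, 8.93, 8.92 and 8.71 in the mutants and 8.31, 8.05, 8.08 and 7.95 in the controls, a rise of 0.76 (SE 0.102, limma adjusted p = 0.00349). Rbm43, an RNA-binding protein gene near Nmi, rose by 1.06 (SE 0.126, limma adjusted p = 0.00178). Rif1, on the other side of Nmi, differed by -0.05 (limma adjusted p = 0.825). None of the 4 tested neighbours of Ifi35 passed, and the nearest to doing so was Vat1 at -0.67 (limma adjusted p = 0.0674).

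**Figure D5:**
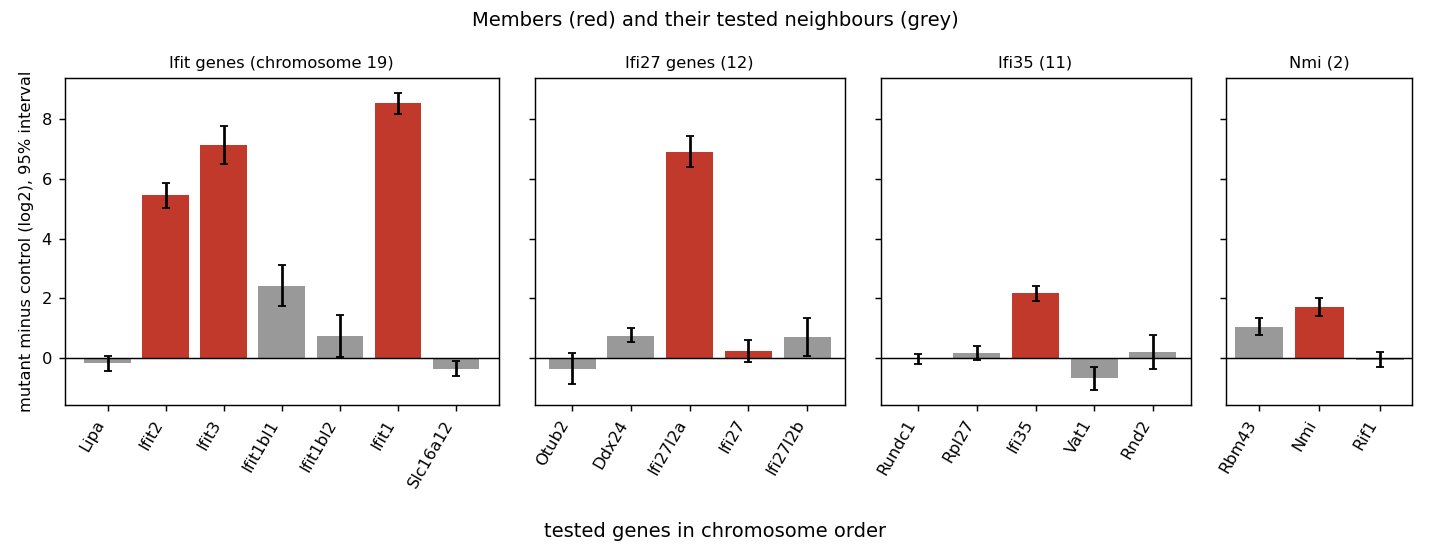
Mutant minus control difference on the log2 scale (vertical axis, bars from 0 with 95% intervals) of the 7 measured genes in red and their tested neighbours on the same chromosomes in grey, in chromosome order. The risen Ifit2, Ifit3 and Ifit1bl1 stand in a row, and Ifit1bl2 at 0.74 lies between Ifit1bl1 and the risen Ifit1. Ifi27l2a stands beside Ifi27 at 0.24.

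The pathway above these genes changed in part. Of 18 tested genes of interferon receptors, kinases, STATs, regulatory factors and feedback inhibitors, 5 rose and none fell, with a median difference of 0.39. These were Irf7, a factor that amplifies interferon responses (6.84), the feedback protease Usp18 (5.79), Irf9 (1.87), Irf1 (2.12) and Irf8 (2.63), and their adjusted p in the limma fit lay between 7.42e-07 and 0.000603. The control arrays of Irf7 read 4.54, 3.66, 4.14 and 3.88, around the filter level of 4. The size of its difference thus depends on dim control values. The receptor chains Ifnar1, Ifnar2, Ifngr1 and Ifngr2 showed differences of -0.45, 0.11, 0.10 and 0.40, none past the threshold (adjusted p between 0.0553 and 0.713, limma).

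Interferon ligands gave little signal. Of 17 listed, 10 had a probe set and 1 was above the filter, Ifnz, at 5.47 in the mutants and 5.38 in the controls (limma adjusted p = 0.887). The other 9, among them Ifnb1 and Ifng, were too dim to test, and 7 lay within 0.5 of the lowest value of the table on every array. The dim Ifna5 averaged 2.58 in the mutants and 2.47 in the controls. A message near the floor is not resolved on these arrays, so its change cannot be read.

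Of 33 other interferon-induced antiviral genes listed, 30 had a probe set. All 29 that were tested rose, while 2.66% of all tested genes were called higher. Their median difference was 3.61, against 5.45 for the IFIT group and -0.11 for all tested genes. Some of the 29, among them Zbp1, Dhx58 and Oasl1, passed the filter only through their mutant arrays, so the filter shaped this count and median. Oas3, at the floor on every array, was measured but not tested. The nucleic acid sensor Zbp1 rose by at least 6.09, the RNA sensor regulator Dhx58 by at least 4.97 and Oasl1 by at least 4.90, since their control arrays all lay under the filter, and the RNA sensor Ifih1 rose by 3.36. Among the proteins that IFIT proteins meet, Cmtr1, the enzyme that methylates the cap of host messages, rose by 0.90 (SE 0.193, limma adjusted p = 0.0364), and the other 7 of 8 tested did not pass. Of 7 tested partners of Nmi and Ifi35, Irf7 and Trim21, a ubiquitin ligase that binds antibodies inside cells (2.18, limma adjusted p = 0.000176), rose and none fell. Neither Nr4a1 (-0.46) nor the nuclear exporter Xpo1 (0.05) nor Skp2 (-0.08), partners of human IFI27 or its relatives, passed.

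For each risen gene the tested gene with the most similar profile was found from values minus the control mean, by root mean square distance over the 8 arrays. It was Irf7 for both Ifit3 (distance 0.35) and Ifi27l2a (0.13), the MHC class I light chain B2m for Ifi35 (0.15) and Ly6e for Nmi (0.14). For Ifit1 and Ifit2 it was Ms4a4d and Dhx58, whose control arrays all lay under the filter, so no distance is given. The distances are in log2 units and mainly match genes by the size of their rise.

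All 10 endothelial and all 9 pericyte markers, the cells named by the labels, passed the filter, with the tight junction gene Cldn5 at 14.39 in the mutants and 14.57 in the controls. Of these, Pdgfrb itself (-1.01, limma adjusted p = 0.00132) and the endothelial factor Erg (-0.63, limma adjusted p = 0.00561) fell and the pericyte gene Higd1b rose (0.85, limma adjusted p = 0.041); the substitution need not alter the transcript, so Pdgfrb does not check the genotype. Markers of other brain cells were present as well: all 10 neuron, 8 astrocyte, 7 fibroblast and 5 choroid plexus markers passed the filter, and the choroid plexus gene Ttr stood at 16.39 in the mutants and 16.36 in the controls. Arrays correlated at 0.988 to 0.995 within groups and at 0.977 to 0.991 between them. Microglia and macrophage markers moved with the members: 12 of 14 tested rose and none fell, among them Ctss (2.26), C1qa (2.38), Fcer1g (2.18) and Aif1 (3.31). Their summed linear value over 17 genes was 11490 to 20900 on mutant arrays and 3297 to 5584 on control arrays, with Itgam at the floor on every array. In such bulk samples more cells of a type and more RNA per cell cannot be told apart, and the part of these cells in the rises of the IFIT group was not tested. All 7 measured markers of T and NK cells lay at the floor on every array. Of 5 plasmacytoid dendritic cell markers 3 were tested and 1 rose, Bst2 (3.48, limma adjusted p = 1.16e-05), which is itself interferon-induced, while Ccr9 differed by 0.48 (limma adjusted p = 0.4). Siglech averaged 3.14 in the mutants and 2.92 in the controls, under the filter on all arrays. None of the neuron, astrocyte, oligodendrocyte, fibroblast, choroid plexus, erythroid, neutrophil, B cell or smooth muscle markers tested passed.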

How the data were processed

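RNA from brain microvessels was measured on 8 one-colour oligonucleotide arrays, 4 mutant and 4 control, grouped by the labels' titles. The deposited values are log2 expression values of the authors; per the submitters' processing notes they come from GCRMA, with no version or settings stated. GCRMA corrects background by probe sequence, normalizes quantiles and summarises probes, so dim probe sets collect at a floor (38.7% to 41.0% of each array within 0.5 of the lowest value). The log2 scale was read from the values (2.18 to 16.49). No counts belong to arrays, and 4 per group limits the precision.

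Of 45101 probe sets, 34958 had 1 symbol, 932 several and 9211 none here. No symbol needed updating. Each of 18194 genes was represented by its brightest probe set by mean, and 11446 genes above log2 4 on at least 4 arrays were tested with limma 3.58.1 in R 4.3.3 (lmFit, eBayes, two-sided, no covariates, Benjamini-Hochberg threshold 0.05), also for every probe set singly, and the fit was tested on simulated data. Where all control arrays lay under 4, a fold is a bound against that level. In all, 524 genes (4.58%) changed.

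The members and lists were chosen with earlier results of these data known. Named were all members and relatives, up to 4 members of a list with the smallest p that passed or the 2 brightest, chromosomal neighbours with a probe set, and nearest profiles; of marker lists and neighbours most are given as counts. Irf8, the interferon receptor chains, Ifnb1, Ifng, Itgam, Siglech, Skp2, Oas3 and Eif2s3y fall outside this rule and were chosen after their values were seen. Cldn5 and Ccr9 also fall outside it. The labels do not say whether brains shared a litter or day, so no batch could be tested.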

Additional observations from a re-analysis of the deposited data

Results flagged for a closer look

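Of 28 groups of 4 values examined, 4 held 1 array far from the other 3. Chance gives about 1 in 20 for independent groups, but probe sets of 1 gene share their arrays. The Ifi44l split entered this count on more than 1 probe set, so the count and that rate cannot be compared directly. In Ifi44l mutant array 4 read 2.45 on one probe set and 2.29 on another, while mutant arrays 1 to 3 read 10.21, 10.30 and 9.90 on the first and 9.44, 9.63 and 9.31 on the second. In Ifi35 mutant array 1 read 10.81 on one dimmer probe set, above 10.41, 10.47 and 10.46 on the other mutant arrays and 7.92 to 8.49 on the control arrays. In Ifi27l2b mutant array 1 read 6.86, against 5.81, 5.69 and 5.71 on the other mutant arrays and 5.07 to 5.69 on the control arrays.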

How the results depend on the processing

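The number of changed IFIT and small interferon-induced genes was 5 to 7 over 20 alternatives, against 6, and that of probe sets 7 to 10 over 18, against 8. The 5 genes and 7 probe sets arose without any 1 mutant array, because Ifit1 then has fewer than 4 arrays above the filter and is not tested, and the 7 genes and 10 probe sets with array weights, where Ifi27 also passed. The differences of Ifit1, Ifit2, Ifit3, Ifi27l2a, Ifi35 and Nmi kept their direction and passed in every alternative that tested them, over 8.42 to 8.69, 5.31 to 5.65, 6.87 to 7.32, 6.79 to 7.10, 2.12 to 2.34 and 1.61 to 1.80. Ifi27 spanned 0.14 to 0.39. Over all genes the count of 524 became 259 with the replicate block, 3158 with array weights, 246 at a threshold of 0.01 and 241 with a fold of at least 2, and leaving out 1 array gave 264 to 540, with 264 without mutant replicate 3, 322 without control replicate 3 and 306 without control replicate 4. Same-numbered mutant and control arrays deviated together by correlations of -0.08, -0.48, -0.20 and 0.30, and differently numbered ones by -0.40 to 0.49. So few values cannot show whether the numbers pair the brains. Control array 4 was the lowest control for 4 of the 6 risen genes, as mutant array 4 was the lowest mutant. The replicate block changed no call of the IFIT group. No difference of a measured gene of the group changed sign in its alternatives, and none of a tested relative did with 1 array left out. The other named genes were not run through the alternatives. The split of 304 higher and 220 lower genes was not stable: it was 221 and 38 with the replicate block, 895 and 2263 with array weights and 241 and 65 without control replicate 4. The cause of these shifts was not tested. Leaving out each array for the relatives was chosen after seeing the data: Ifit1bl1 passed each time, at 2.13 to 2.65, and Ifit1bl2 (0.52 to 0.96) and Ifi27l2b (0.43 to 0.84) passed in none.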
